A study of Homo sapiens with 2 samples.

Results

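The proteasome genes of hNCI-H716 cells were followed in 2 RNA-seq libraries, which stand for 48 h of culture in low (5.5 mM) and in high (25 mM) glucose. They were chosen by symbol, as every gene named PSMA to PSMG followed by a number, which gave 46 of the 19989 genes in the deposited table. The hNCI-H716 line comes from a colorectal adenocarcinoma of the cecum and serves as a human model of the L-cell, the gut endocrine cell that secretes glucagon-like peptide-1. Before the medium change, cells of both groups had attached to Matrigel for 24 h. Both then received DMEM with 10% fetal bovine serum and penicillin/streptomycin, so that the labels separate the groups by glucose alone.

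The proteasome is the protease that removes proteins tagged with ubiquitin. Its core is a barrel of stacked rings, in which alpha subunits form the gate and beta subunits carry the cutting sites inside. A regulatory particle caps the barrel: the base unfolds the substrate with a ring of ATPases and holds ubiquitin receptors, and the lid removes the ubiquitin chain. Immune signals such as interferon gamma replace the 3 constitutive cutting subunits with inducible ones, which makes the immunoproteasome, known for trimming peptides for antigen presentation. Other caps, the activators, open the barrel without ubiquitin, and dedicated chaperones assemble core and base. Secretory cells such as the L-cell use this machinery also to clear misfolded proteins exported from the endoplasmic reticulum.

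The symbols sorted into 7 alpha and 7 beta subunits of the core, 3 inducible subunits, 9 subunits of the base, 8 of the lid, 4 activators, 1 inhibitor, 4 chaperones of the core and 3 of the base. The tissue-restricted subunits PSMA8, an alpha subunit of the testis, and PSMB11, the beta subunit of the thymic cortex, had no row in the table.

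The promoters were searched for the letters of elements that are known to bind regulators of these genes. RefSeq windows on GRCh38.p14, from 250 bases before to 50 bases after each start site, were held for 40 of the 46 genes. The letters GAAANNGAAA, the core of the element that interferon regulatory factors bind, were searched on both strands. They occurred in the windows of 7 of the 40 genes (17.5%), against 4.38% of all 27305 genes with a window. Among them were PSMB8 and PSMB10, which are inducible cutting subunits, both interferon-responsive activators, PSME1 and PSME2, and the chaperone PSMG4. None of the 16 base and lid genes with a window held these letters (0 of 16), which for so few genes is near the 4.38% over all genes. The stretches below show the match, in capitals, in the inducible subunits and interferon-responsive activators that hold it and, for comparison, in PSMG4. They run in the direction of transcription, and a match on the opposite strand appears as its reverse complement.
PSMB8 (chr6:32844028-32844057, minus strand): tgtggcTTTCGCTTTCacttcctcctccga
PSMB10 (chr16:67936851-67936895, minus strand): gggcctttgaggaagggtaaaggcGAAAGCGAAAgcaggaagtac
PSME1 (chr14:24136193-24136222, plus strand): taccgcTTTCGCTTTCccttcgcggtgccc
PSME2 (chr14:24146611-24146662, minus strand): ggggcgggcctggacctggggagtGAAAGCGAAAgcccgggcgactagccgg
PSMG4 (chr6:3258890-3258946, plus strand): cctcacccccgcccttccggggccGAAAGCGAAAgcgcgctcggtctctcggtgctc

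Counted from the start site, the match begins at position -4 in PSMB8, and at -21, 5, -28 and -33 in PSMB10, PSME1, PSME2 and PSMG4. The other matches were in PSMA4 and PSMB4. No match was found in the window of PSMB9, the remaining inducible subunit, which says only that these letters are not in that window.

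The letters TGACNNNGC, the core of the antioxidant response element used by NFE2L1 and NFE2L2, were in 15 of the 40 genes (37.5%), against 16.1% of all genes with a window and 19.1% of the 11038 genes that are also in the table. NFE2L1 is the transcription factor known to restore proteasome genes when proteasome activity falls short. Neither run of letters contains the other, and PSMA4, PSME1 and PSME2 held both. Stretches with this match are shown for 4 genes whose values are described later: a core subunit that was lower in the high glucose library, PSMB3, and 2 genes that were higher, PSMD12 and PSMD5, with PSMD3, a lid gene with a log2 ratio near 0. These 4 were picked with their values known.
PSMB3 (chr17:38752613-38752669, plus strand): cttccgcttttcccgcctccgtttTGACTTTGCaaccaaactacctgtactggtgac
PSMD12 (chr17:67366710-67366766, minus strand): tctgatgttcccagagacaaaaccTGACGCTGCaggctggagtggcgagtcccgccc
PSMD3 (chr17:39980746-39980802, plus strand): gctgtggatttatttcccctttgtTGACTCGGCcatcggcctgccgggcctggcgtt
PSMD5 (chr9:120843024-120843080, minus strand): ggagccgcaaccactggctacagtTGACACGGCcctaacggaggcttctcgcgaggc

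An ETS element, CCGGAAG, was in 14 of the 40 windows (35%), 9 of them among the 16 base and lid genes, against 20.4% of genes in the table. A CCAAT box (CCAAT) was in 19 of 40, 7 of them among the 10 core genes with a window, against 43.1% of genes in the table. The GC box GGGCGG was in 28 of 40 (70%), where 74.6% of genes in the table had it. A match is a run of letters, and whether any factor was bound there was not measured.

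The libraries held 21757819 (low glucose) and 19456587 (high glucose) estimated counts, recovered from the steps of the deposited library-scaled counts (CPM). Each concentration has 1 library, so no difference below has a replicate check, no p-value was computed, and each comparison is between the 2 libraries and not between the conditions. The 95% intervals cover counting error only. Hormone and granule genes marked both libraries as endocrine, with GCG, which encodes proglucagon, at 1954 CPM in low and 1808 CPM in high glucose. Of the epithelial genes KRT8 was at 270 and 291 CPM, KRT18 at 182 and 212 CPM, CDX2 at 30.5 and 38.2 CPM, VIL1 at 11.7 and 17.8 CPM, EPCAM at 3.37 and 3.50 CPM, and KRT20 near the limit of detection at 0.150 and 0.0121 CPM. The leukocyte genes PTPRC, CD3E and HLA-DRA and the fibroblast gene DCN had no row, CD14, COL1A1 and COL1A2 stood between 0.0582 and 4.94 CPM, and LYZ, which epithelial cells also express, was at 441 and 413 CPM. The part of the differences in CDX2 and VIL1 in the values that follow was not tested. In bulk RNA a smaller share of cells with a transcript and less of it per cell cannot be told apart.

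Proteasome genes were abundant in both libraries. Together they took 7147 CPM in low and 7258 CPM in high glucose, which is 0.713% and 0.727% of each library. By mean CPM the median gene stood at percentile 92.5 of all genes in the table, and 30 of the 46 were above percentile 90. The lowest were PSMG4, at percentile 50.9, and PSMB9, at percentile 53.4. All 46 averaged 1 CPM or more and 45 averaged 10 CPM or more. The spread between genes, from a mean of 7.82 CPM for PSMG4 to one of 687 CPM for PSMA7, was far wider than that between libraries, as the plot of CPM by gene shows.

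**Figure D1:**
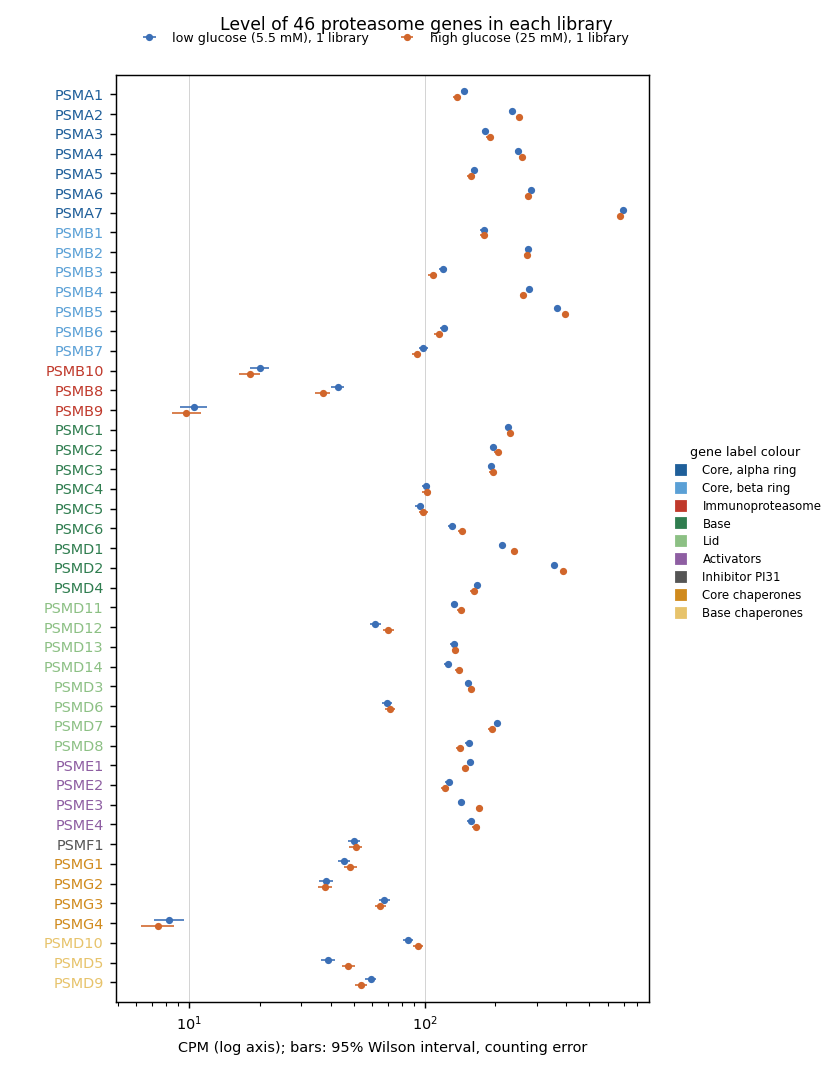
Each row is a gene and each point its CPM in 1 library on a log axis, blue for low and orange for high glucose, with the 95% Wilson interval of counting error as the bar and functional groups marked by the colour of the gene label. PSMA7 stands highest in both libraries, PSMG4, PSMB9 and PSMB10 stand lowest, and the points of each gene lie close together.

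Levels can be set between genes only per length of transcript, here CPM per kb of the longest coding transcript. On that scale the median level, as the mean of both libraries, was 155 CPM per kb for the 14 core genes and 67.4 CPM per kb for the 17 genes of the base and lid. The order of these medians was the same with the union of exons as length (57.8 against 37.0 CPM per kb) and with the shortest principal transcript (177 against 68.1 CPM per kb). The core chaperones had a median of 22.2 CPM per kb and the inducible subunits one of 15.7 CPM per kb. Subunits that share 1 particle therefore differed in RNA level, with a span of 46.0-fold from PSMD12 to PSMA7 over the 31 core, base and lid genes (50.8-fold, from PSMD6, with the union of exons).

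The difference between the libraries was small for most genes of the family. The log2 ratio, high over low glucose, had a median of 0.01 and ran from -0.21 (PSMB8) to 0.28 (PSMD5), with 24 genes higher and 22 lower. Over the 9345 genes that averaged 10 CPM or more the median log2 ratio was 0.01 too. A single family member, PSMD5, was at least 1.2-fold higher in high glucose (2.17% of the 46), against 3.20% of all genes, and 0 were at least 1.2-fold lower, against 4.82%. At 1.1-fold, 6 were higher and 5 lower (13.0% and 10.9%), against 16.6% and 17.7% of all genes. The counting interval lay above 0 for 14 of them and below 0 for 9 (30.4% and 19.6%), against 20.4% and 18.0% of all genes. The width of an interval goes with the count, and the median gene of the family had a mean of 141 CPM, against 46.4 CPM over all genes. Among the 2239 genes that averaged 100 CPM or more, a comparison added after seeing the data, 36.4% had an interval above 0 and 25.9% one below it. Of these genes 1.16% were at least 1.2-fold higher and 1.97% at least 1.2-fold lower. Of the 31 proteasome genes at that level 11 had an interval above 0 (35.5%) and 6 one below it (19.4%). The shares of the family thus lay near the background of genes of like abundance.

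**Figure D2:**
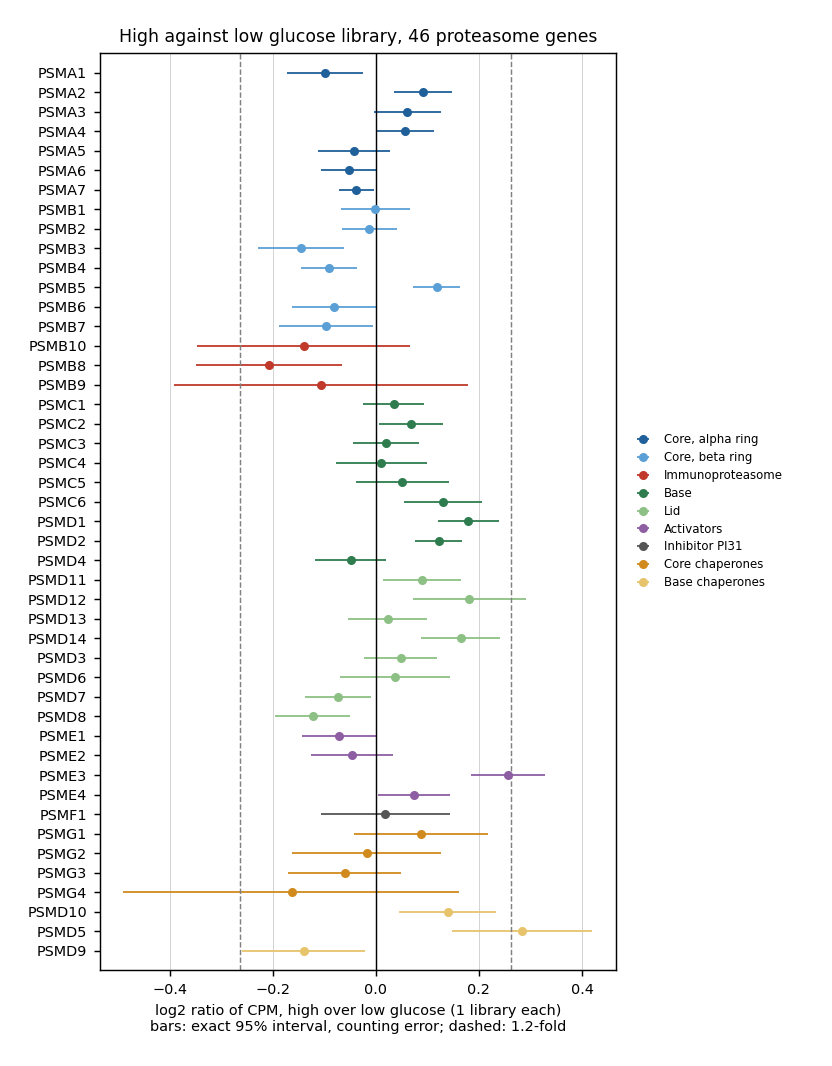
Each point is the log2 ratio of CPM in the high over the low glucose library for 1 gene, with the exact 95% interval of counting error as the bar and the colour giving the functional group; dashed lines mark 1.2-fold in either direction. Points of the beta ring and the inducible subunits lie mostly left of 0, those of the base and lid mostly right of it, and PSMD5 alone lies beyond a dashed line.

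The alpha ring, which forms the gate and the docking surface for the caps, had a median log2 ratio of -0.04, with 3 genes higher and 4 lower. With the median of genes of like transcript length taken off, as described with the length values, the median turned to 0.04, with 5 above 0 and 2 below. PSMA7 had the highest level of the family, at 696 CPM in low and 678 CPM in high glucose, which is 698 and 680 CPM per kb. PSMA5 had the lowest level of the ring per length, at 43.5 and 42.2 CPM per kb. The highest log2 ratio was that of PSMA2, at 235 CPM in low and 251 CPM in high glucose (log2 ratio 0.09, interval 0.03 to 0.15). The lowest was that of PSMA1, at 148 and 138 CPM (log2 ratio -0.10, interval -0.17 to -0.02). Summed over the ring, the level was 1955 CPM in low and 1946 CPM in high glucose, and the log2 ratio of the sums had an interval that includes 0 (-0.03 to 0.01).

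In the beta ring 6 of 7 genes were lower in high glucose and 1 was higher, and the median log2 ratio was -0.08. After the same length adjustment 3 were above 0 and 4 below, with a median of -0.00097. The one that was higher was PSMB5, the chymotrypsin-like cutting subunit. It stood at 364 CPM (interval 356 to 372) in low and 395 CPM in high glucose, a log2 ratio of 0.12 (0.07 to 0.16). The other constitutive cutting subunits had log2 ratios below 0, which the length adjustment brought to 0.0089 for PSMB6 and -0.0069 for PSMB7. PSMB6, the caspase-like subunit, was at 121 and 115 CPM (log2 ratio -0.08, interval -0.16 to 0.0007), and its interval just includes 0. PSMB7, the trypsin-like subunit, was at 99.0 and 92.6 CPM (log2 ratio -0.10, interval -0.19 to -0.01). The log2 ratio of PSMB6 was 0.20 below that of PSMB5 (difference -0.20, interval -0.29 to -0.11), and that of PSMB7 was 0.21 below it (difference -0.21, -0.32 to -0.11). All 3 are parts of each constitutive core, and their RNAs stood in different proportions in the libraries.

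Among the beta subunits without a cutting site, PSMB3 had the lowest log2 ratio, with 120 CPM in low and 108 CPM in high glucose (-0.14, interval -0.23 to -0.06). PSMB4, known as the subunit that joins the ring late, had a log2 ratio of -0.09 (-0.15 to -0.04). After the length adjustment PSMB3 was at -0.05 and PSMB4 at -0.00097. PSMB1 and PSMB2 differed least, with log2 ratios of -0.0012 and -0.01. Per length PSMB5 was the highest of the ring by the mean of both libraries, at 281 and 305 CPM per kb, while PSMB4 was higher in low glucose (288 and 271 CPM per kb), and PSMB2 the lowest, at 64.9 and 64.4 CPM per kb, although PSMB7 was the lowest with either other length. The sum over the ring was 1434 CPM in low and 1421 CPM in high glucose, and the log2 ratio of the sums had an interval that includes 0 (-0.04 to 0.01).

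The inducible subunits were present at low levels and all 3 were lower in high glucose (median log2 ratio -0.14, or -0.05 after the length adjustment). PSMB8, which takes the place of PSMB5, was at 42.8 CPM (interval 40.1 to 45.6) in low and 37.1 CPM in high glucose. Its log2 ratio was -0.21 (-0.35 to -0.07), the lowest of the family. After the length adjustment it was -0.12, and PSMG4 (-0.20) and PSMD9 (-0.16) were lower. No interval was computed for adjusted values. PSMB10, which takes the place of PSMB7, was at 20.0 and 18.2 CPM (log2 ratio -0.14, interval -0.35 to 0.07). PSMB9, which takes the place of PSMB6, was at 10.5 and 9.76 CPM (log2 ratio -0.11, interval -0.39 to 0.18). The intervals of PSMB9 and PSMB10 include 0, so for these genes a difference was not detectable at this depth. Their sum was 73.3 CPM in low and 65.0 CPM in high glucose (log2 ratio -0.17, interval -0.28 to -0.07), and most of it was PSMB8.

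Set against its constitutive counterpart per length, each inducible subunit was far the lower. PSMB8 stood at 0.113 of the level of PSMB5 in low glucose and at 0.0899 in high glucose. The corresponding values were 0.0952 and 0.0936 for PSMB9 to PSMB6, and 0.163 and 0.158 for PSMB10 to PSMB7. In these cells the constitutive RNA was thus 6.15 to 11.1 times its inducible counterpart, over the 3 pairs and both libraries, or 5.13 to 24.9 times with the union of exons as length. The proportion of PSMB8 to PSMB5 differed between the libraries (log2 difference -0.32, interval -0.47 to -0.18), as the level of PSMB8 was lower and that of PSMB5 higher. For the PSMB9 and PSMB10 pairs the log2 differences were -0.02 (-0.32 to 0.27) and -0.04 (-0.27 to 0.18), and both intervals include 0. The levels within a pair depend on the length taken for each transcript, while the difference between libraries does not.

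**Figure D3:**
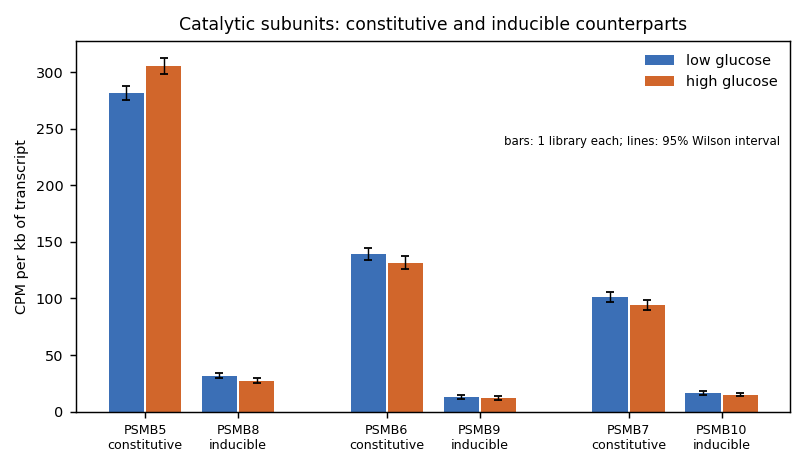
Bars give CPM per kb of the longest coding transcript for each constitutive cutting subunit and its inducible counterpart, in low (blue) and high (orange) glucose, 1 library each, with lines for the 95% Wilson interval of counting error. PSMB5 is the highest at 281 and 305 CPM per kb, and each inducible subunit stands below 32 CPM per kb beside a constitutive counterpart above 94 CPM per kb.

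The PSMB8 and PSMB9 genes lie on opposite strands of chromosome 6 and their annotated exons share 139 bp. PSMB8 (ENSG00000204264.9) spans 32840717 to 32844703 on the minus strand of GRCh38, and PSMB9 (ENSG00000240065.7) spans 32844136 to 32859585 on the plus strand. The library kit that the labels name does not mark strand, so reads from the shared stretch cannot be told apart. In all, 13 of the 46 genes share exon sequence with another gene of the table, always on the opposite strand. Counting every annotated gene, 23 of the 46 share exon sequence with another. Some overlap a coding gene on the same strand, as PSMA1 (814 bp), PSMA2 (781 bp), PSMA6 (919 bp), PSMB10 (644 bp) and PSMD9 (1307 bp). These same-strand partners had no row under their symbol, and their part in the values was not tested. TAP1, which encodes a subunit of the peptide transporter and shares a promoter region with PSMB9, was at 44.2 and 49.5 CPM (log2 ratio 0.16, interval 0.03 to 0.29). The log2 ratio of PSMB9 minus that of TAP1 was -0.27 (-0.58 to 0.05), and this interval includes 0.

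In the base 8 of 9 genes were higher in high glucose (median log2 ratio 0.05). The 6 ATPases, PSMC1 to PSMC6, which pull the substrate into the core, were all higher, by log2 ratios of 0.01 to 0.13. PSMC6 had the highest log2 ratio of the ATPases, with 131 CPM in low and 144 CPM in high glucose (0.13, interval 0.05 to 0.21). Its interval and that of PSMC2 (0.07, 0.01 to 0.13) excluded 0, and those of the other ATPases did not. Per length PSMC3 (121 and 123 CPM per kb) and PSMD4 (124 and 120 CPM per kb) had the highest levels of the base, in an order that differed between the libraries, and PSMC1 had the lowest (50.6 and 51.9 CPM per kb), or PSMC6 with the union of exons as length. The ATPases form a ring of 1 copy each, and their levels per kb spanned 2.38-fold, less than the 16.1-fold of the alpha ring. PSMC1 shares 4671 bp of annotated exons with NRDE2 on the opposite strand, a gene at 24.0 and 22.9 CPM.

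Of the subunits of the base that are not ATPases, 2 were higher and 1 lower. PSMD1, a large scaffold subunit, was at 212 CPM in low and 240 CPM in high glucose (log2 ratio 0.18, interval 0.12 to 0.24), the highest log2 ratio in the base. PSMD2, which binds ubiquitin-like shuttle proteins, was at 355 and 387 CPM (0.12, 0.08 to 0.17). PSMD4, the ubiquitin receptor, was the exception, at 167 and 161 CPM (-0.05, -0.12 to 0.02). Its sign turned after the length adjustment, to 0.04. Summed, the base stood at 1674 CPM in low and 1762 CPM in high glucose (log2 ratio 0.07, interval 0.05 to 0.10).

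In the lid 6 of 8 genes were higher in high glucose and 2 lower, with a median log2 ratio of 0.04. PSMD12, a scaffold of the lid, was at 61.9 CPM (interval 58.7 to 65.3) in low and 70.2 CPM in high glucose, the highest log2 ratio of the lid (0.18, 0.07 to 0.29) and its lowest level per length (14.1 and 15.9 CPM per kb), where the union of exons put PSMD6 lowest. PSMD14, the deubiquitinase that cuts the chain off the substrate, was at 125 and 140 CPM (0.16, 0.09 to 0.24). Its inactive partner PSMD7, the highest of the lid per length at 121 and 115 CPM per kb, had a log2 ratio of -0.07 (-0.14 to -0.01). The partners of this heterodimer therefore had intervals on opposite sides of 0. PSMD8 had the lowest log2 ratio of the lid, with 154 CPM in low and 141 CPM in high glucose (-0.12, -0.20 to -0.05). PSMD3 was at 153 and 158 CPM (0.05, -0.02 to 0.12). Summed, the lid stood at 1033 CPM in low and 1052 CPM in high glucose, and the log2 ratio of 0.03 had an interval that includes 0 (-0.0017 to 0.05).

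Core and regulatory particle can be set side by side. Over all genes 51.9% were higher and 48.1% lower. Of the 14 core genes 4 were higher and 10 lower, with a median log2 ratio of -0.04, and of the 17 base and lid genes 14 were higher and 3 lower, with a median of 0.05. The difference of the medians, core minus base and lid, was -0.09. The sums gave the same direction, with core RNA at 3389 CPM in low and 3367 CPM in high glucose (log2 ratio -0.01, interval -0.02 to 0.01) and base and lid RNA at 2707 and 2814 CPM (0.06, 0.04 to 0.07). The difference between the log2 ratios of these sums was -0.07 (interval -0.09 to -0.04), which is beyond counting error and less than 1.1-fold. Of the base and lid summed apart, as given with each, the base alone had an interval clear of 0.

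Transcript length moved with this split. Core genes are short, with a median of 1012.5 bp for the longest coding transcript, against 1991 bp for the base and lid. Over the 8838 coding genes of that abundance with an annotated length, split into 10 classes of about equal size by length, the shortest class (359 to 1515 bp) had a median log2 ratio of -0.09, while the medians of the other classes ran from -0.01 to 0.04. The shortest class held 18 of the 46 proteasome genes, 10 of them core and 2 base or lid. Across the 45 members at or above 10 CPM, log2 ratio and length had a Spearman's rho of 0.55 (Pearson's r with log length 0.53), and across all 8838 genes one of 0.12 (0.12). These are correlations across genes of the same 2 libraries, and the genes are not independent replicates.

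**Figure D4:**
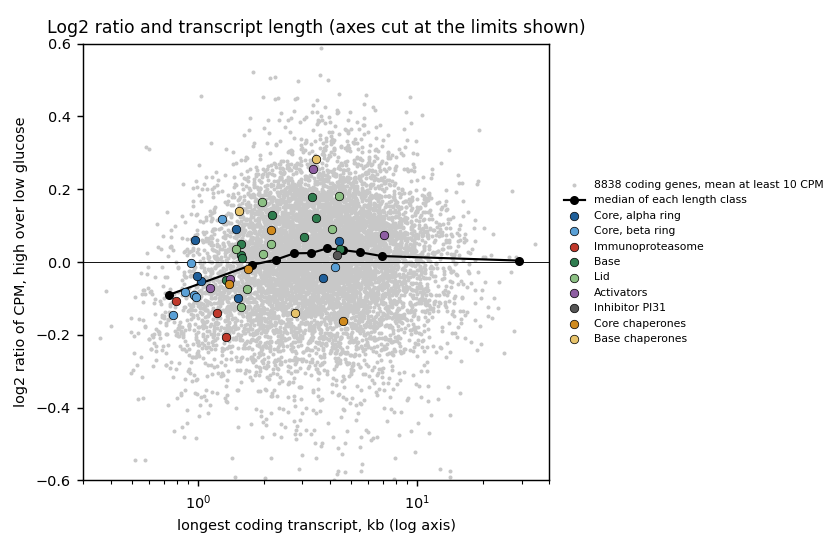
Grey points are the 8838 coding genes averaging 10 CPM or more, the black line joins the median log2 ratio of each of the 10 length classes, and coloured points are the 46 proteasome genes, with length of the longest coding transcript in kb on a log axis and the log2 ratio of high over low glucose on the other. The black line is lowest, at -0.09, at the short end, where most core subunits lie.

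The median log2 ratio of its length class was therefore taken off each gene, an alternative chosen after seeing the data. The core median was then 0.02, with 8 genes above 0 and 6 below it, and that of the base and lid 0.04, with 15 above and 2 below. The difference of the medians became -0.03. All 9 base genes were then above 0, from 0.0018 (PSMC1) to 0.15 (PSMD1). Several of these values, as for PSMC1, PSMC3 and PSMC4, were smaller than counting error. By construction, genes above and below 0 are about equal in number in each length class after this step. The 3 inducible subunits remained below 0 with a median of -0.05. PSMB8 and PSMB5 both fall in the shortest length class (1351 and 1294 bp), so the same value came off both and their difference was as before. PSMB5 then stood at 0.21 and PSMB8 at -0.12. Within the shortest class the median was -0.05 for the 10 core genes and -0.0060 for the 2 base and lid genes. Among longer transcripts it was -0.03 for 4 core genes (1 higher, 3 lower) and 0.05 for 15 base and lid genes (13 higher, 2 lower).

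The activators differed among themselves. PSME3, the nuclear activator that acts as a ring of a single kind of subunit, was at 143 CPM (interval 138 to 148) in low and 171 CPM in high glucose. Its log2 ratio of 0.26 (0.19 to 0.33), or 1.19-fold, was next to the highest of the family. PSME3 (ENSG00000131467.10) lies on chromosome 17 of GRCh38, 42824385 to 42843758, on the plus strand. The longest coding transcript used here is 3366 bp, and its shortest principal transcript 998 bp. Its annotated exons share 300 bp with BECN1 on the opposite strand, a gene at 47.0 and 46.8 CPM.

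PSME1 and PSME2, which form the interferon-responsive activator together, had log2 ratios below 0. PSME1 was at 156 and 149 CPM (log2 ratio -0.07, interval -0.14 to 0.001) and PSME2 at 127 and 123 CPM (-0.05, -0.13 to 0.03), and both intervals include 0. With the median of their length class taken off, their sign turned, to 0.02 and 0.04, and all 4 activators were above 0. The log2 ratios of these partners differed by 0.02 (-0.08 to 0.13), while that of PSME3 was 0.33 above that of PSME1 (0.23 to 0.43). PSME4, the large activator known from chromatin and spermatogenesis, was at 157 and 165 CPM (0.07, 0.005 to 0.14). The inhibitor PSMF1, a regulator of core activity and assembly, was at 50.4 and 51.0 CPM, and its log2 ratio of 0.02 had an interval that includes 0 (-0.11 to 0.14).

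The chaperones of the base ranged from a log2 ratio of -0.14 to one of 0.28. PSMD5, which binds an ATPase during assembly of the base, was at 39.1 CPM (interval 36.5 to 41.8, from 849 estimated counts) in low and 47.6 CPM in high glucose. This gave a log2 ratio of 0.28 (0.15 to 0.42), or 1.22-fold, so the interval reaches to both sides of the 1.2-fold threshold. PSMD5 (ENSG00000095261.13) lies on chromosome 9 of GRCh38, 120815496 to 120842984, on the minus strand, and no other gene of the table was found to share its exons. With the median of its length class taken off, its log2 ratio was 0.26 and under the threshold.

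PSMD10, a chaperone of the ATPases also known as the oncoprotein gankyrin, was at 85.1 and 93.7 CPM (log2 ratio 0.14, interval 0.05 to 0.23). PSMD9 was at 59.2 and 53.7 CPM (-0.14, -0.26 to -0.02). So of 3 chaperones for the same subcomplex, the interval lay above 0 for 2 and below 0 for 1. Per length PSMD10 was the highest, at 55.0 and 60.6 CPM per kb, and PSMD5 the lowest, at 11.4 and 13.8 CPM per kb, where the union of exons put PSMD9 lowest.

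The chaperones of the core, which pair up to build the alpha ring, had log2 ratios whose intervals all include 0. PSMG1 was at 45.6 and 48.5 CPM (0.09, -0.04 to 0.22), PSMG2 at 38.4 and 37.9 CPM (-0.02, -0.16 to 0.13). PSMG3 was at 67.6 and 64.9 CPM (-0.06, -0.17 to 0.05), the highest per length of this set at 48.6 and 46.6 CPM per kb. PSMG4, its partner, was the lowest gene of the whole family, at 8.26 CPM (7.13 to 9.55) in low and 7.38 CPM in high glucose (-0.16, -0.49 to 0.16). Per length it was at 1.79 and 1.60 CPM per kb, and with the shortest principal transcript at a mean of 9.33 CPM per kb, the lowest of the family with each length used. Its annotated exons share 1388 bp with SLC22A23 on the opposite strand, a gene at 15.2 and 15.5 CPM.

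Other genes that work with the proteasome were taken from a list of 18 genes, all with a row. Their median log2 ratio was 0.04, with 11 higher, 7 lower and 0 past 1.2-fold in either direction, against 3.20% (higher) and 4.82% (lower) of all genes. SEM1, the small subunit of the lid that the symbol rule does not catch, was at 190 and 178 CPM (log2 ratio -0.10, interval -0.16 to -0.03). ADRM1, the ubiquitin receptor of the base, was at 315 and 323 CPM (0.04, -0.01 to 0.09), and POMP, the maturation factor of the core, at 251 and 259 CPM (0.05, -0.01 to 0.10). The deubiquitinases of the particle were both higher, UCHL5 at 96.1 and 108 CPM (0.17, 0.08 to 0.26) and USP14 at 110 and 119 CPM (0.10, 0.02 to 0.19). UBE3C, a ligase that extends chains on the particle, was at 150 and 168 CPM (0.16, 0.09 to 0.23).

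Shuttle proteins that carry ubiquitinated cargo to the proteasome went both ways. UBQLN4 was at 97.9 and 111 CPM (log2 ratio 0.19, interval 0.10 to 0.27) and RAD23B at 265 and 284 CPM (0.10, 0.04 to 0.15). UBQLN2 was at 79.3 and 69.0 CPM (-0.20, -0.31 to -0.10). Within the ubiquilin family, these paralogs had intervals on opposite sides of 0.

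The genes that control or feed the pathway were split too. Of the 9 regulators with a row, 4 were higher and 5 lower. NFE2L1 was at 267 CPM in low and 245 CPM in high glucose (log2 ratio -0.12, interval -0.18 to -0.07), while DDI2, the protease that activates it, was at 50.5 and 56.5 CPM (0.16, 0.04 to 0.28). VCP, the segregase that extracts proteins for degradation, was at 1036 and 1117 CPM (0.11, 0.08 to 0.13). SEL1L, a scaffold of the endoplasmic reticulum degradation complex, was at 315 and 273 CPM (-0.21, -0.26 to -0.15). Of the genes that encode ubiquitin itself, UBB had a log2 ratio of -0.08 (-0.11 to -0.05) and RPS27A, a fusion with a ribosomal protein, one of -0.17 (-0.20 to -0.15). The activating enzymes UBA1 and UBA6 had log2 ratios of 0.05 (0.02 to 0.08) and 0.08 (-0.03 to 0.18).

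The 15 genes with the antioxidant element letters in their window had a median log2 ratio of 0.05, with 9 higher and 6 lower, and the 25 without had one of 0.02, with 15 higher and 10 lower. The 7 genes with the interferon element letters had a median of -0.09 (1 higher, 6 lower), against 0.05 in the 33 without, with 23 higher and 10 lower. The transcripts of 5 of those 7 fall in the shortest length class, as do those of 7 of the 33. With the median of the length class taken off, the medians were -0.00097 and 0.04.

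Antigen processing and interferon genes, a list of 13 that all had a row, were split, with 6 higher and 7 lower and a median log2 ratio of -0.02. Past 1.2-fold were 1 higher (CIITA) and 3 lower (ERAP2, NLRC5 and IRF9), against 3.20% and 4.82% of the genes that averaged 10 CPM or more. CIITA and ERAP2 stood under 2 CPM in both libraries, below that filter, with intervals that include 0. NLRC5, the activator of class I antigen presentation genes, was at 46.8 and 38.8 CPM (log2 ratio -0.27, interval -0.41 to -0.13), and IRF9, a transcription factor of interferon signalling, at 12.6 and 9.53 CPM (-0.40, -0.68 to -0.13). TAPBP, which bridges the transporter to class I molecules, was at 95.4 and 82.6 CPM (-0.21, -0.30 to -0.11), and B2M, the light chain of class I, at 1839 and 1903 CPM (0.05, 0.03 to 0.07). IRF1, the factor known to induce PSMB9 and TAP1, was at 8.16 and 8.04 CPM (-0.02, -0.34 to 0.30), whose interval includes 0.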

How the data were processed

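Polyadenylated RNA was sequenced from 1 library per glucose concentration. The authors trimmed reads with Trim Galore 0.5.0, aligned them with STAR 2.6.0 to GRCh38, estimated counts with RSEM 1.3.1, removed genes with very low counts and used TMM in edgeR. The deposited CPM per library carry a prior of 0.0121 CPM. The deposited log2 CPM, and the authors' columns of means, log2 differences and fold ratios of high over low glucose, were not used.

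Library totals were recovered from the CPM steps (0.0460 and 0.0514 CPM per count). Of values under 10 CPM, 73.9% and 74.1% were whole counts within 0.05, so the RSEM counts are not whole reads and no count model was fitted across genes. CPM were divided by TMM factors (0.998 and 1.002). CPM carry Wilson intervals and log2 ratios exact binomial ones, at 95%, which treat the estimated counts as if they were reads. A count of 0 allows 0.138 CPM in low and 0.154 CPM in high glucose, 3 counts of the total. Python 3.11.15, numpy 2.4.6, pandas 2.3.3, scipy 1.17.1 and matplotlib 3.10.9 were used, and the calculations were tested on simulated data.

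The members, groups and gene lists were chosen with earlier results of these data known. Values were given for the cutting, inducible and activator subunits, the inhibitor, members past 1.2-fold, and the extremes of level and log2 ratio of each other group. Further genes were named from the lists where a sentence on a group needed them. Some genes counted in those lists are not reported here by name. Members were counted as called past 1.2-fold, over the 9345 genes that averaged 10 CPM or more. Lengths and coordinates came from GENCODE release 29 on GRCh38, which held all 46 members and 14630 of the 19989 symbols. The alternatives were other scalings, prior and pseudocount, filters, folds, and transcript lengths. Neither a replicate nor a test of the conditions was available.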

Additional observations from a re-analysis of the deposited data

How the results depend on the processing

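Of 401 values under alternatives, for 81 results, 359 moved by less than counting error or, for counts, by less than 1.5 times, and 42 moved further. Without TMM factors or with median-of-ratios factors all log2 ratios shifted by 0.0044 or 0.0092. With median-of-ratios factors 2 proteasome genes were at least 1.2-fold higher, since PSME3 passed. At 1.1-fold 6 were higher and 5 lower, and at 1.5-fold 0 were higher. With a mean of at least 50 CPM, or of at least 100 CPM (added after seeing the data), 0 were higher. At 50 CPM the median of the base chaperones was -0.00039, since PSMD5 was left out.

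Over all genes, 1547 were higher and 1658 lower at 1.1-fold, 14 and 28 at 1.5-fold, 82 and 104 with a mean of at least 50 CPM, 26 and 44 with at least 100 CPM, 839 and 1481 with at least 1 CPM, and 3129 and 4463 with no filter.

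With the median of its length class taken off, chosen after seeing the data, the medians were 0.0339 for the family, 0.0371 for the alpha ring, -0.00097 for the beta ring, 0.0165 for the core and 0.0510 for the activators, and 0 genes were 1.2-fold higher. Of the single genes, 12 moved beyond counting error, all under this alternative. Its classes rest on the longest coding transcript, and it was not repeated with the other lengths. The class of a gene can depend on that choice, as for PSME3, with 3366 bp by this length and 998 bp by the shortest principal transcript.

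In low glucose, the level of PSMB8 to PSMB5 was 0.0692 with the union of exons as length and 0.135 with the shortest principal transcript, the latter also chosen after seeing the data. With the union of exons the values were 0.0408 for PSMB9 to PSMB6 and 0.195 for PSMB10 to PSMB7, and the median core, base and lid gene stood at 45.6 CPM per kb.

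Adding rows of proteasome pseudogenes was not run, as 0 of 32 annotated pseudogene symbols had a row. No paired analysis was possible because each concentration has 1 library, which also leaves no library to leave out.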
